A study of Rattus norvegicus with 13 samples.

Results

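The genes described here encode the factors that start and carry forward protein synthesis on cytosolic ribosomes, together with the enzymes and binding proteins named after them. They were chosen by symbol, as all genes of the deposited table whose symbol begins with Eif1 to Eif6 or with Eef1 or Eef2, which gave 63 of 14855 genes. Of these, 48 are subunits or isoforms of the factors, and 15 are kinases, binding proteins, methyltransferases and genes that only share the name. The rule itself used no measured value, but it was set with earlier results of these data known.

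In initiation, eIF2 brings the initiator tRNA to the small ribosomal subunit, eIF3 and eIF1 hold and position that subunit, and the eIF4 proteins bind the mRNA cap and unwind its leader. In elongation, eEF1A delivers each aminoacyl-tRNA, the eEF1B proteins recharge eEF1A with GTP, and eEF2 moves the ribosome along. In neurons these steps are known for their control by signalling, through kinases of eIF2, through the 4E-binding proteins under mTORC1, and through the kinase of eEF2, and local protein synthesis is needed for lasting synaptic change.

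RNA was sequenced from the medial preoptic area (MPOA), a part of the hypothalamus that is involved in mating and care of young, of adolescent male rats of the SAS Sprague-Dawley strain. On postnatal day 21 the rats were injected on both sides with 0.5 uL of an adeno-associated virus, AAV5. In every group the virus carried GFP and a short hairpin RNA (shRNA) under the U6 promoter, which was directed against Oprm1, the mu opioid receptor gene, or had a scrambled sequence. The labels name 7 scrambled and 6 Oprm1 shRNA samples, and they leave 1 of the latter, number 6, out of the analysis, so that 5 remain. The labels say neither whether every sample came from its own rat nor which cells of the dissected tissue took up the virus.

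The data are the authors' deposited table of a single edgeR comparison, which gives each gene's log2 fold change (above 0 where Oprm1 shRNA samples were higher), its average abundance as log2 CPM (read counts scaled to library size), a likelihood ratio statistic, and an unadjusted and an adjusted p-value. No values of single samples were at hand, so the depth per sample is unknown, and no level can be shown sample by sample. The spread between samples enters through an implied standard error, which is the size of the log2 fold change over the root of the likelihood ratio statistic, and from which approximate 95% intervals were drawn. Average CPM is not divided by transcript length, so it is given below as the reads behind a value and not as a ranking of expression between genes. All 9 markers of preoptic and hypothalamic tissue were present in the authors' deposited table, among them the estrogen receptor gene Esr1 at 41.8 CPM and the galanin gene Gal at 64.1 CPM. The 9 ran from 1.03 CPM for Hmx3 to 360 CPM for Calcr. Genes down to 0.282 CPM are listed, so presence alone is a weak check of the tissue. Oprm1, the target of the hairpin, had a fold of 0.670 (0.0715 to 6.27) at 7.32 CPM and an unadjusted p of 0.725 by the authors' deposited table, too wide an interval for its level to check the group labels.

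No translation factor gene passed the threshold, an adjusted p under 0.05 in the authors' edgeR test, in either direction. The count was 0 of 63, where the authors' deposited table had 3 calls in all, or 0.0202% of its genes. Every member had an adjusted p of 0.9997. With an unadjusted p under 0.05 there were 4 members by the authors' deposited table, 2 higher and 2 lower, which is 6.35% of 63 beside 4.39% of all genes (1.49% higher and 2.9% lower). The share over all genes varied with abundance, and was 12.2% below a log2 CPM of 2, beside 0 of 3 members. Between 2 and 4 it was 1.02%, beside 0 of 5 members. Between 4 and 6 it was 2.30%, beside 1 of 23 members. Between 6 and 8 it was 4.53%, beside 2 of 21 members, and from 8 up 4.60%, beside 1 of 11. Of the 63 members 26 were higher and 37 lower, by the authors' deposited table, so that 41.3% had a log2 fold change above 0, beside 48.4% of all genes. The median log2 fold change of the members was −0.05, beside −0.02 over all genes. A mean weighted by precision, in which Eef1a1, Eef2 and Eif4g2 hold 52.7% of the weight, had the other sign, at 0.03.

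**Figure D1:**
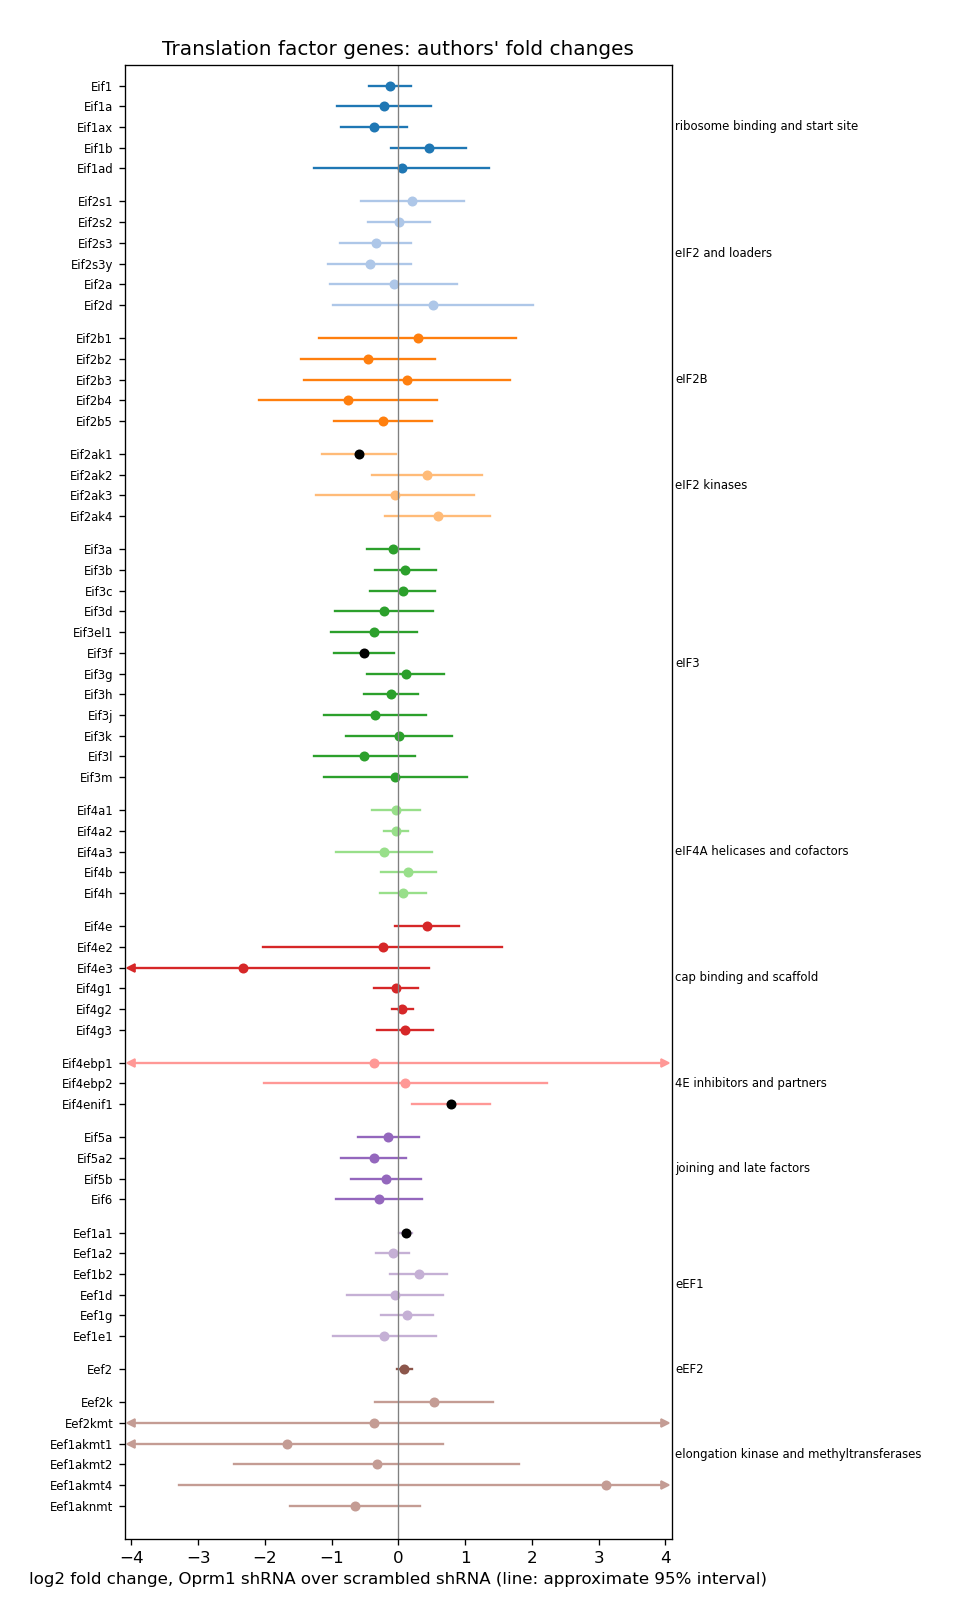
Log2 fold changes (Oprm1 shRNA over scrambled shRNA) of the 63 translation factor genes from the authors' deposited table, by role; lines are approximate 95% intervals, black points have an unadjusted p under 0.05, and arrowheads mark intervals of 5 genes that run past the drawn range of 4. Most points lie close to 0, and 51 of 63 are within 0.5 of it.

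Members with more reads had smaller values, as all genes did. Between a log2 CPM of 6 and 8 the median absolute log2 fold change was 0.216 for the members and 0.169 for all genes. From 8 up it was 0.0859 for the members and 0.0851 for all genes. The 3 members with an absolute log2 fold change above 1 were Eif4e3, Eef1akmt1 and Eef1akmt4, each below 16 CPM by the authors' deposited table. Of the 32 members with a log2 average CPM of at least 6, that is 64 CPM, 1, Eif2ak1, was beyond 1.5-fold by the authors' deposited table. The interval lay wholly within 2-fold in either direction for 35 of 63 members, or 55.6%, beside 28.6% of all genes. It lay within 1.5-fold for 17 members, or 27.0%, beside 9.39% of all genes. It lay within 1.2-fold for 4 members, or 6.35%, beside 0.693% of all genes. These 4 were Eif4a2, Eif4g2, Eef1a1 and Eef2, of which Eef1a1 and Eef2 lie in a range of small standard errors described below. For the 28 members not within 2-fold a change of 2-fold was within the interval. The class of log2 CPM between 4 and 6 holds 23 members. Its median implied standard error was 0.40 for the members and 0.53 for all genes, which corresponds to a limit of 1.73-fold and 2.05-fold. Between 6 and 8 (21 members) the medians were 0.250 and 0.258, and from 8 up (11 members) 0.160 and 0.160. The shares above of intervals within 2-fold, 1.5-fold and 1.2-fold are not matched for abundance. Median abundance was 65.2 CPM for the members and 22.2 CPM for all genes.

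**Figure D2:**
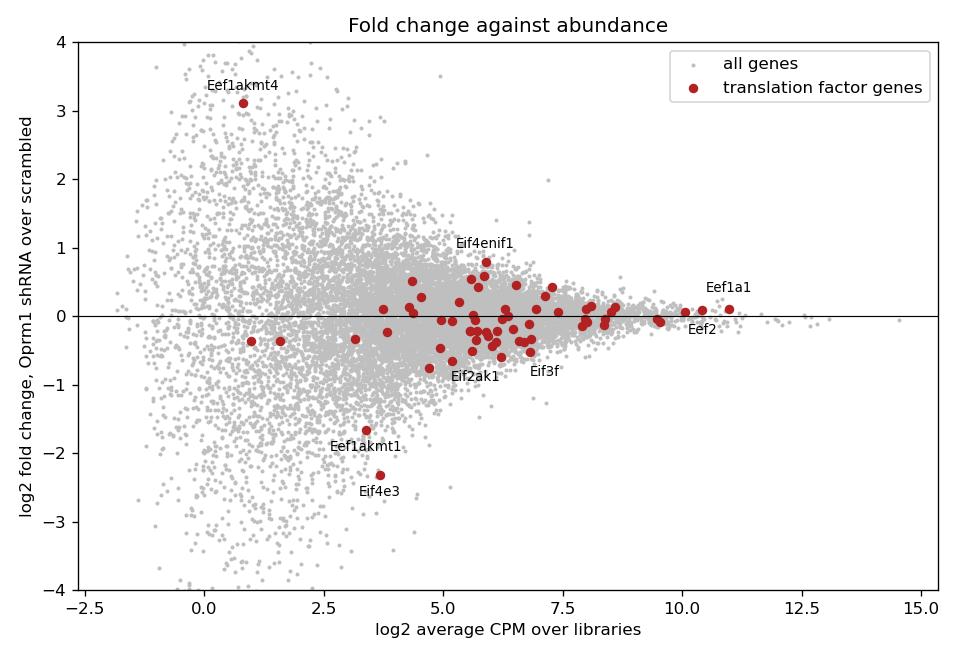
Log2 fold change against log2 average CPM for all genes of the authors' deposited table (grey) and the 63 translation factor genes (red); 548 genes beyond a log2 fold change of 4 are not drawn. The members narrow towards 0 with rising abundance, as all genes do, and Eef1akmt4, Eif4e3 and Eef1akmt1 are the 3 members outside a log2 fold change of 1.

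Among the factors that position the ribosome at the start codon, none passed the threshold. Eif1, which guards start codon choice, stood at a log2 fold change of −0.13 (implied standard error 0.16, given in the same way below) with 330 CPM by the authors' deposited table. Its close relative Eif1b stood at 0.45 (0.29), with an unadjusted p of 0.113 by the authors' deposited table. The values of Eif1 and Eif1b lie on opposite sides of 0, and both intervals include no change. The X-linked Eif1ax, whose product helps scanning, stood at −0.36 and its copy Eif1a at −0.21 by the authors' deposited table. Eif1ad, which shares a domain with eIF1A, was at 0.05 with a standard error of 0.67.

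For the 3 subunits of eIF2, which carries the initiator tRNA, the authors' deposited table gave log2 fold changes of 0.21 for the alpha subunit gene Eif2s1, 0.01 for the beta subunit gene Eif2s2 and −0.34 for the gamma subunit gene Eif2s3. The Y-linked copy Eif2s3y, a gene of the male chromosome, was measured at 65.2 CPM and had −0.43, by the authors' deposited table, next to the value of Eif2s3. Both gamma subunit genes thus lie below 0, with fold intervals of 0.483 to 1.14 for Eif2s3y and 0.547 to 1.15 for Eif2s3. The authors' RSEM counting divides reads among similar genes by an estimate, so the values of these copies may not be independent, which was not tested. Eif2a and Eif2d, whose products can bring tRNA to the ribosome without eIF2, stood at −0.07 and 0.52, by the authors' deposited table, the latter at 20.5 CPM.

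The complex eIF2B recharges eIF2 with GTP, and its 5 genes had 2 values above and 3 below 0 by the authors' deposited table. The catalytic epsilon subunit gene Eif2b5 stood at −0.23 (0.37) and the delta subunit gene Eif2b4, with the smallest p of the 5, at −0.75 (0.68) by the authors' deposited table. Mutations in any of the eIF2B genes are known in humans to cause vanishing white matter disease. Between 19.6 and 59.4 CPM, all 5 intervals reached beyond 1.4-fold in at least 1 direction.

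The 4 kinases that phosphorylate eIF2 and so lower general initiation had values of both signs. Eif2ak1, which encodes the heme-regulated kinase HRI, had a log2 fold change of −0.59 (0.28), a fold of 0.663 (0.450 to 0.976), with an unadjusted p of 0.0371 by the authors' deposited table. Eif2ak4, which encodes the amino acid sensor GCN2, stood at 0.59 (0.40), a fold of 1.502 (0.866 to 2.60). For Eif2ak2, the gene of the double-stranded RNA sensor PKR, which interferon is known to induce, the authors' deposited table gave 0.43 (0.42) at 52.9 CPM. Its fold interval of 0.761 to 2.39 spans no change. Eif2ak3, the gene of the endoplasmic reticulum kinase PERK, was at −0.05 (0.61). None of the 4 passed, and Eif2ak1 alone had an interval that left out no change.

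The 12 measured genes of eIF3, the largest initiation complex, had 4 values above and 8 below 0, by the authors' deposited table, with a median of −0.09. Eif3f had a log2 fold change of −0.52 (0.23), a fold of 0.697 (0.511 to 0.952) at 113 CPM, with an unadjusted p of 0.0235 by the authors' deposited table. Eif3l stood close to it at −0.51 (0.39) with a wider interval. The subunits of the core that are known to be needed for the complex to form had values nearer 0, with −0.08 for Eif3a, 0.10 for Eif3b and 0.06 for Eif3c, by the authors' deposited table, all with intervals within 1.5-fold. For the other 6 genes apart from Eif3m, the authors' deposited values ran from −0.37 for Eif3el1, a symbol that the RefSeq annotation gives as a synonym of Eif3e, to 0.11 for Eif3g. Eif3m had a value of −0.04 with a standard error of 0.55 at 74.7 CPM, where the median over all genes of log2 CPM 6 to 8 was 0.258.

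In the eIF4A group, which unwinds mRNA leaders, the 5 genes lay between −0.22 and 0.15 on the log2 scale by the authors' deposited table. The helicase gene Eif4a2, the form known to prevail in brain, had a fold of 0.974 (0.858 to 1.11) at 707 CPM, and its paralog Eif4a1 a fold of 0.976 (0.759 to 1.25) at 249 CPM by the authors' deposited table. These folds are almost the same. Eif4a3, whose product belongs to the exon junction complex, stood at −0.22, and the helicase cofactor genes Eif4b and Eif4h at 0.15 and 0.07 by the authors' deposited table.

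Among the cap-binding and scaffold genes, Eif4e, whose product binds the mRNA cap, had a log2 fold change of 0.42 (0.24), a fold of 1.34 (0.962 to 1.87) at 155 CPM, with an unadjusted p of 0.0830 by the authors' deposited table. Its paralogs were thinly covered, with Eif4e2 at −0.24 (14.2 CPM) and Eif4e3 at a fitted −2.32 (12.8 CPM, standard error 1.42) by the authors' deposited table. The fold interval of Eif4e3, 0.0292 to 1.37, spans no change and is wide. The 3 scaffold genes were close to 0, by the authors' deposited table, with −0.04 for Eif4g1, 0.06 for Eif4g2 and 0.10 for Eif4g3. Eif4g2 (1063 CPM), whose product acts on mRNAs that are read without the cap-binding protein, had a fold of 1.04 with a narrow interval of 0.933 to 1.16.

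The smallest unadjusted p of any member belonged to Eif4enif1, which encodes 4E-T, a protein that takes eIF4E into the nucleus and into granules of silent mRNA. It had a log2 fold change of 0.79 (0.30), a fold of 1.73 (1.16 to 2.60) at 59.2 CPM, with an unadjusted p of 0.00789 and an adjusted p of 0.9997 by the authors' deposited table. That unadjusted p ranks 108 among the 14855 genes. For the inhibitors of eIF4E, the authors' deposited table gave 0.10 (1.08) for Eif4ebp2, the form known to prevail in brain, at 13.4 CPM, and −0.37 (2.32) for Eif4ebp1 at 1.96 CPM. Their fold intervals were wide, at 0.247 to 4.66 for Eif4ebp2 and 0.0329 to 18.2 for Eif4ebp1, and Eif4ebp3 was not analysed here.

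All 4 genes of subunit joining and late steps lay below 0 by the authors' deposited table, in which 48.4% of all genes lay above it. The values were −0.15 for Eif5a, whose hypusine-bearing product helps ribosomes past difficult peptide bonds, −0.37 for its paralog Eif5a2, −0.19 for Eif5b, a GTPase of subunit joining, and −0.29 for Eif6, which keeps the ribosomal subunits apart. All 4 intervals included no change, and the smallest unadjusted p was 0.135, for Eif5a2 by the authors' deposited table. Eif5 itself is in the table under a provisional symbol, NEWGENE_619861, which the rule does not take. Singled out once its values were known, it stood at 0.04 (0.16) with 392 CPM by the authors' deposited table.

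Eef1a1 and Eef2 had the smallest implied standard errors of the 63 members. Eef1a1, the widespread form of eEF1A, had a log2 fold change of 0.11 (0.047), a fold of 1.08 (1.01 to 1.15) at 2034 CPM, with an unadjusted p of 0.0232 by the authors' deposited table. Eef1a2, the form that replaces it in mature neurons and muscle, had a fold of 0.942 (0.791 to 1.12) at 745 CPM there. Eef2, whose product moves the ribosome by a codon, stood at 1.06-fold (0.984 to 1.15) at 1372 CPM by the authors' deposited table. For Eef1a1, Eef1a2 and Eef2 the intervals leave out changes beyond 1.3-fold. In the eEF1B exchange complex the authors' deposited table gave 0.30 for Eef1b2, 0.13 for Eef1g and −0.05 for Eef1d. Eef1e1, whose product sits in the aminoacyl-tRNA synthetase complex, was at −0.21.

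Eef1a1 and Eef2 lie between 1218 and 2435 CPM, a range where implied standard errors are small. The median over the 45 genes of that range was 0.0561, beside 0.102 in the next lower range of equal width. When the standard errors of the range were raised to 0.102, a step added with the data in view, Eef1a1 had an unadjusted p of 0.291 and Eef2 of 0.378. The cause of the small standard errors was not tested.

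**Figure D3:**
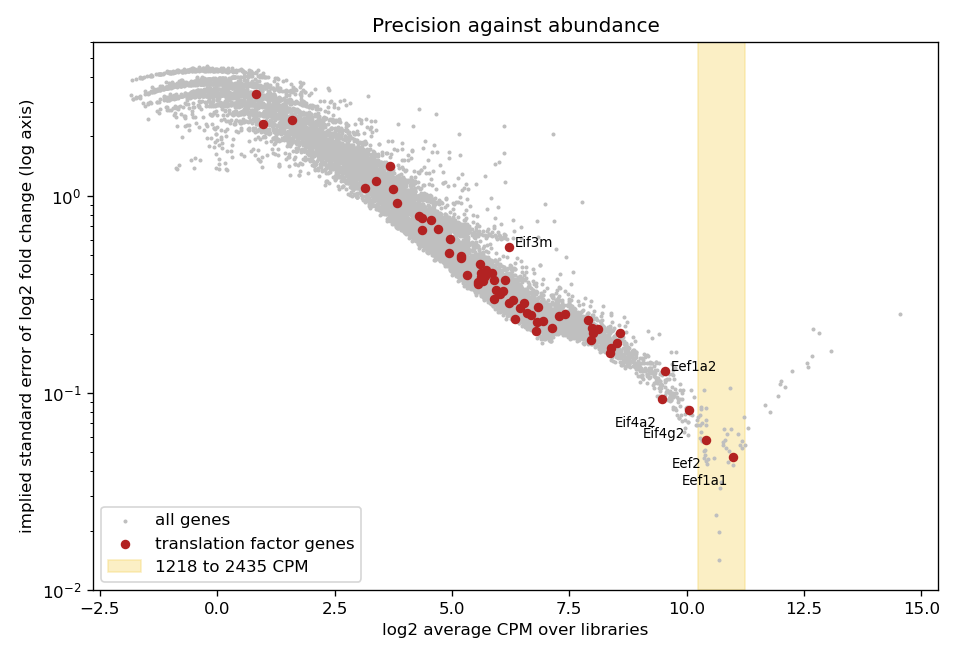
Implied standard error of the log2 fold change (log axis) against log2 average CPM for all genes (grey) and the 63 translation factor genes (red), with the range from 1218 to 2435 CPM shaded. Eef1a1 and Eef2 sit in the shaded dip, Eif4g2 just left of it, and Eif3m stands above the other members of its abundance.

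Several members have near copies in the annotation, among which the authors' RSEM counting divides reads by an estimate. The copy with the most reads, LOC100911991, described as elongation factor 1-alpha 1-like and singled out once its values were known, stood at a log2 value of −0.26 (0.14) at 647 CPM, with an unadjusted p of 0.0702 by the authors' deposited table. Its value is opposite in sign to that of Eef1a1. Adding the 2 genes, with group levels rebuilt from the authors' averages and fold changes, gave a fold of 1.01, beside 1.08 for Eef1a1 alone. An Eif4g1-like gene, LOC100912571, chosen in the same way, had 0.81 (0.43) at 81.7 CPM and an unadjusted p of 0.0575, by the authors' deposited table, and the sum with Eif4g1 had a fold of 1.10. For Eif3h with its copy the fold of the sum was 1.03, and for Eif3el1 with its 2 copies 0.792. These sums carry no error, and whether reads moved between copies was not tested.

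Enzymes that act on the elongation factors were thinly covered, with the exception of Eef2k and Eef1aknmt. Eef2k, the kinase that halts eEF2 when calcium rises, had a log2 fold change of 0.54 (0.45), a fold of 1.45 (0.787 to 2.68) at 48.2 CPM by the authors' deposited table. Eef1aknmt, a methyltransferase of eEF1A, stood at −0.65 (0.50), Eef1akmt1, a lysine methyltransferase, at −1.66 (1.19) and 10.5 CPM, and Eef1akmt2, of the same family, at −0.33 by the authors' deposited table. For Eef1akmt4 at 1.76 CPM and Eef2kmt at 3.01 CPM the fitted values of 3.11 and −0.36 in the authors' deposited table have standard errors of 3.27 and 2.43 and set no usable bound.

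Transcripts of the translation machinery are known for a pyrimidine tract at their very start, through which mTORC1 controls their translation, and this was looked up as a feature the choice by symbol did not use. RefSeq start regions (build GRCr8, another assembly than the authors' Rnor_6.0) were at hand for 56 of 63 members. In 1 of the 56, Eif2a, the annotated start base was a C followed by at least 4 C or T on the sense strand. That is 1.79%, beside 3.11% of all RefSeq symbols with a start region and 3.15% of those in the authors' deposited table. A longer tract, a C and at least 5 C or T, was also sought, starting from 10 bases before to 9 bases after the start base. In that search, chosen after seeing the sequences, 14 of 56 or 25% held such a tract. The share was 18.8% of all RefSeq symbols and 18.1% of those in the authors' deposited table. The 4 windows below hold 10 bases before and 20 bases from the annotated start, with the longest such tract in capitals; the window of Eif3f also holds a shorter one at its left end. They are shown because Eef1a1 and Eif3f are the members with a tract and an unadjusted p under 0.05, and because Eef1b2 and Eif2s3 are the other factor subunits with tracts of at least 12 bases.
Eef1a1 (chr8:88225050-88225079, minus strand): ttggacgttCTTTTTCgcaacgggtttgcc
Eif3f (chr1:172369052-172369081, plus strand): cccttccgttctagCCTCTCTCTTTCTCgg
Eef1b2 (chr9:72074081-72074110, plus strand): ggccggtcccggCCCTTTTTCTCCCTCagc
Eif2s3 (chrX:62933680-62933709, minus strand): cagccgagcattttCCTTTTCTCTCTgagc
The tract of Eef1a1 begins 1 base before the annotated start. The values of these genes do not share a direction: Eef1a1 and Eef1b2 stood at 0.11 and 0.30, and Eif3f and Eif2s3 at −0.52 and −0.34 on the log2 scale by the authors' deposited table. Over the 14 members with a tract the median was −0.10, with 4 higher, and over the 42 without it −0.01, with 21 higher. Over all genes of the table with a RefSeq start region the order was the other way, at −0.0082 with a tract and −0.0194 without. A match describes the letters only, and start bases that the annotation misplaces would be missed.

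Other genes of the translation pathway were described by the same measures, in 7 lists, and 0 genes of any list passed the adjusted threshold in the authors' edgeR test. At an unadjusted p under 0.05 there were 3 of the 88 genes in the 7 lists together, or 3.41% beside 4.39% of all genes, and they were Impact, Dph2 and Cars. The 20 genes of mTORC1 and S6 kinase signalling had 10 values above and 10 below 0 with a median of −0.004, and the 2 of smallest p were Rraga at 0.42 and the kinase gene Mtor at −0.36 by the authors' deposited table. Genes of the integrated stress response, which eIF2 phosphorylation sets off, had 5 of 12 higher and a median of −0.10. Among them Atf4, the central transcription factor of that response, had a fold of 1.202 (0.866 to 1.67), and Ppp1r15a, whose product directs the dephosphorylation of eIF2, a log2 fold change of −0.85 (0.74) by the authors' deposited table. Impact, an inhibitor of GCN2, stood at −0.16 (0.069) with an unadjusted p of 0.0170, by the authors' deposited table, and at 1364 CPM it lies in the range of small standard errors.

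Mitochondrial translation factors had 8 of 9 values below 0 with a median of −0.51, by the authors' deposited table, where the median implied standard error was 0.77. The 2 of smallest p were the ribosome recycling factor gene Mrrf at −0.95 (0.53) and the elongation factor gene Gfm1 at −0.89 (0.68), with unadjusted p-values of 0.0700 and 0.190 by the authors' deposited table. Tufm, with the most reads of the 9 at 81.4 CPM, was at −0.15 (0.25). No value of the 9 had an interval that left out no change.

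Of 22 aminoacyl-tRNA synthetase and complex genes, which include Aimp1 and Aimp2 of the complex, 8 were higher and the median was −0.07. The genes of smallest p were Cars at 0.61 (0.26, unadjusted p of 0.0187) and Lars at −0.54 by the authors' deposited table. Of 10 cap, poly(A) and eIF4E partner genes 6 were higher around a median of 0.06, with the helicase gene Ddx3x at −0.23 and Gigyf1 at 0.31 by the authors' deposited table. Of 5 termination and recycling genes 2 were higher around a median of −0.15, with the release factor gene Etf1 at −0.21 and the recycling factor gene Abce1 at −0.15 by the authors' deposited table. Enzymes that modify the factors, a list that shares Eef1aknmt with the members, had 3 of 10 higher and a median of −0.23. Dph2, of the pathway that builds diphthamide on eEF2, had 1.82 (0.88) at 14.1 CPM, with an unadjusted p of 0.0374 by the authors' deposited table.

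**Figure D4:**
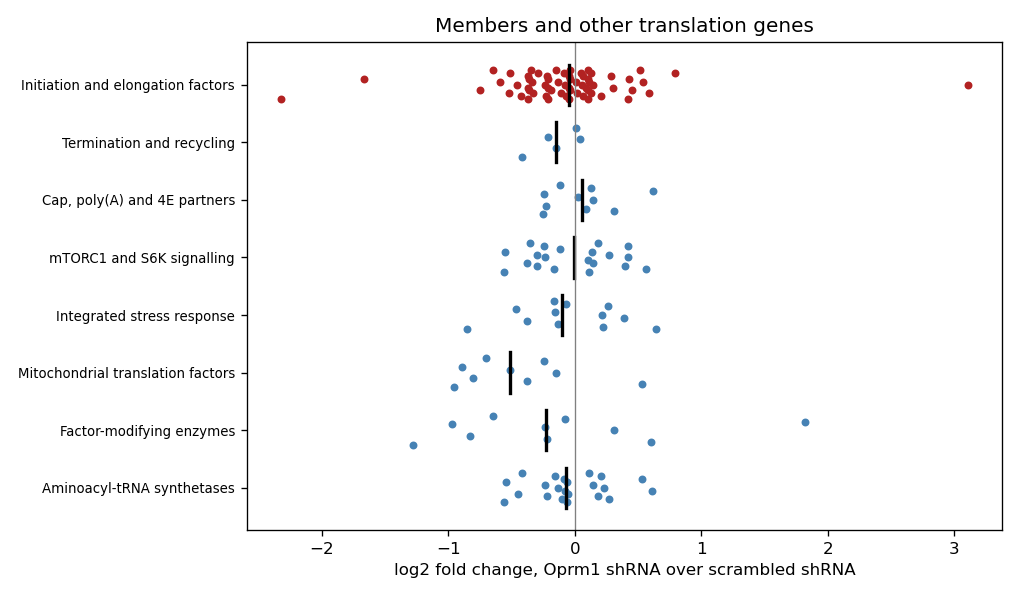
Log2 fold changes of the 63 translation factor genes (red) and of 7 other lists of translation genes (blue), by the authors' deposited table; each point is a gene and the black bar is the median of its list. The medians lie between −0.51, for the mitochondrial factors, and 0.06.

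In bulk tissue fewer cells of a type and less RNA per cell cannot be told apart, and cell type markers were therefore set beside the members. None passed the adjusted threshold. The median log2 fold change was −0.15 for 7 neuronal markers (3 higher), −0.15 for 6 astrocyte markers (2 higher), −0.05 for 6 oligodendrocyte markers (1 higher) and −0.04 for 6 microglial markers (2 higher) by the authors' deposited table. With an unadjusted p under 0.05 there were 2 of the 38 markers, or 5.26% beside 4.39% of all genes. They were the neuronal gene Map2, at a fold of 0.903 (0.839 to 0.972, unadjusted p of 0.00635), and the astrocyte glutamate transporter gene Slc1a2, at 0.362 (0.146 to 0.893, unadjusted p of 0.0275) by the authors' deposited table. Map2, at 1756 CPM, lies in the range of small standard errors, and the astrocyte filament gene Gfap stood on the other side at a log2 value of 0.37. The 3 endothelial markers had a median of 0.29. The 9 preoptic and hypothalamic markers were all higher, with a median of 0.32 by the authors' deposited table, where 48.4% of all genes were higher. They ran from 0.03 (0.20) for Calcr to 3.09 (2.46) for Otp, which had only 2.76 CPM. The smallest unadjusted p of the 9 in the authors' edgeR test was 0.209, for Otp. Hbb, a red blood cell gene, stood at −0.80, and the markers Pecam1, Foxj1, Ttr and Hba1 were not analysed here. The part of cell composition in the members' values was not tested.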

How the data were processed

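Samples were grouped by their labels. Tools named per the submitters' processing notes are bcl2fastq 2.20, RSEM, edgeR 3.28.0 and STAR 2.5.3a, with Rnor_6.0 as the build. The sources used here give no annotation release, filter, dispersion setting or covariates. The authors deposited log2 fold changes, log2 average CPM, the likelihood ratio statistic (a score with no fixed range) and p-values, per the file headers. Each deposited p-value equals the chi-square tail (1 degree of freedom) of its statistic, and the adjustment corresponds to 14859 tests, 4 above the number of genes at hand. The test is thus the authors' edgeR likelihood ratio test with Benjamini-Hochberg adjustment over all genes, and its p-values reflect only how these samples spread, which may be technical.

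The members and lists were chosen with earlier results of these data known. The implied standard error treats the likelihood ratio statistic as a squared standard normal value, which is poor for genes with few reads. The arithmetic of its calculation and of the adjustment was checked on simulated data. Those data were drawn under the same normal assumption, so the check cannot show how well the intervals suit read counts. A naming rule took members by smallest p (6 in each direction), by highest CPM (8), by role and as paralogs. In each other list it took the 2 genes of smallest p. Further members, such as Eif3b, Eif3c and Eif3l, and list genes, such as Atf4 and Tufm, were named outside that rule. Protein sequences of the paralogs were not used here. Without a statement on strand, overlapping genes cannot be told apart. Python 3.11.15 with numpy 2.4.6, pandas 2.3.3, scipy 1.17.1 and matplotlib 3.10.9 was used.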

Additional observations from a re-analysis of the deposited data

How the results depend on the processing

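The count of 0 members by the authors' deposited table was also 0 at an adjusted p under 0.1, with adjustment over the genes at hand, with a minimum log2 CPM of 0 or 4, and after the small standard errors were raised. It was 4 at an unadjusted p under 0.05, where all genes gave 652. The whole table's 3 calls became 1 with those errors raised, a setting chosen after seeing the data that weakens calls by construction. The share of members above 0 ran from 39.6% for factor subunits alone to 43.6% at log2 CPM of at least 4. The median ran from −0.06 to −0.03, and the weighted mean was 0.03. No symbol occurs more than once among the members. Depth per sample is unknown, and the intervals of the 8 members below 16 CPM are wide. No paired analysis was possible because the deposited table holds 1 comparison and no values per sample, for which reason no sample was left out in turn either.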
